A study of Mus musculus with 20 samples.

Results

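The 10 genes described here encode alpha subunits of heterotrimeric G proteins, the switches that carry the signal of a G protein-coupled receptor into the cell. They were taken by symbol as Gnas (the stimulatory class, Gs), Gnai1, Gnai2, Gnai3, Gnao1 and Gnaz (the inhibitory class, Gi/o/z), Gnaq, Gna11 and Gna14 (the Gq class) and Gna13 (the G12/13 class). All 10 were found among the 26211 genes of the deposited table, and 5 other alpha subunit genes of that table serve as a comparison. The table holds RNA-seq of mouse pancreatic islets, with 10 libraries of genotype P2Y14-knockout and 10 of genotype wildtype, all of strain C57BL/6 x 129S6. P2Y14, encoded by P2ry14, is a receptor for UDP and UDP-sugars that couples to Gi. Islets were freed by enzyme digestion, picked by hand and kept in medium overnight before RNA was taken. The labels name no treatment, and the sources used here do not give the age or sex of the mice or the part of the gene that was removed.

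In the resting state an alpha subunit holds GDP and a beta-gamma dimer, and an active receptor makes it exchange GDP for GTP and let the dimer go. Gs stimulates adenylyl cyclase and raises cAMP, which is how incretin hormones amplify insulin release in beta cells. Gi and Go lower cAMP and restrain exocytosis when adrenaline or somatostatin binds. Gq and its relatives switch on phospholipase C beta, which releases calcium from stores, and G12/13 acts on the GTPase RhoA through dedicated exchange factors.

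The end of the coding sequence is shown because it encodes the tail that receptors bind and by which the classes differ. Each line gives the last 30 coding bases before the stop codon, 5′ to 3′, from the GENCODE M21 transcripts on GRCm38, with the codon 4 places from the end in capitals. In Gi and Go this codon encodes the cysteine that pertussis toxin modifies.
Gnas: cgcatgcatctccgccaaTACgagctgctc
Gnai1: aagaataacctaaaagacTGTggtctcttc
Gnai2: aagaacaacctgaaggacTGTggcctcttc
Gnai3: aaaaacaacttaaaggaaTGTgggctttat
Gnao1: gccaacaatctccggggcTGCggcttgtac
Gnao1 (alternative end): gccaaaaacctacggggcTGTggactctac
Gnaz: cagaacaatctcaagtacATCggcctttgc
Gnaq: cagctgaacctgaaggagTACaatctggtc
Gna11: cagctgaacctgaaggagTACaacctggtg
Gna14: cagctaaacctacgggagTTCaacttggtg
Gna13: catgacaacctgaagcagCTCatgctgcag

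The cysteine codon TGT or TGC stood at this place in Gnai1, Gnai2, Gnai3 and both ends of Gnao1, and not in Gnas, Gnaz, Gnaq, Gna11, Gna14 or Gna13. Gnaz, grouped with the inhibitory class, carried ATC there. The closest pairs of ends were Gnaq and Gna11, identical at 28 of 30 bases, and Gnai1 and Gnai2, identical at 26. The fewest identical bases, 10 of 30, were found between Gnas and Gnai3 and between the alternative end of Gnao1 and both Gna11 and Gna13. Of the 12 Gnas transcripts with a consensus coding sequence in this annotation, 6 had the end shown. The other transcripts of that imprinted locus encode other protein ends. The deposited value of Gnas does not tell these transcripts apart, and which reads of the locus it counts is not given.

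Depth ranged from 34520628 to 199847246 reads over genes, with a knockout median of 92323083 and a wild-type median of 105776893. Listed beta cell genes, led by Ins2 and Ins1, were abundant in both groups and took 28.6 ± 10.0% of knockout reads against 28.8 ± 7.76% of wild-type reads (SD, n = 10 each). Listed genes of acinar cells, the enzyme-secreting cells of the exocrine pancreas, took 21.4 ± 8.53% and 20.2 ± 8.30% (SD, n = 10 each). The normalized read count of P2ry14 was 51.2 ± 31.4 in knockout against 151 ± 67.4 in wild-type (SD, n = 10 each). Some knockout libraries stood apart. Replicates 2 and 10 lay inside the wild-type range of P2ry14, which started at 79.7, and replicate 5 had no P2ry14 read. Replicate 6 was at 79.7 for Myo7a, where the other 9 knockout libraries lay from 581 to 1332 and wild-type libraries from 0 to 62.7. It was at 0 for Trim12a, against 93.2 to 275 in the other knockout and 0 to 30.2 in wild-type libraries. For Rps13-ps1 it was at 1280, against 0 to 12.2 in the other knockout and 212 to 1221 in wild-type libraries. Values without these 4 libraries are therefore given below where they matter. The labels do not tie each library to its own animal, so p-values measure the spread between these libraries.

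Setting knockout against wild-type islets bears on whether the alpha subunits through which receptors signal in islets differ when P2Y14 is missing. None of the 10 genes passed an adjusted p under 0.05 by limma, against 0.28% of all 17482 tested genes. At an unadjusted p under 0.05 there were 3, namely Gnas, Gnai1 and Gnao1, all lower in knockout; of all tested genes 8.94% had such a p, and 4.63% with a lower value in knockout. The adjusted threshold was also passed by 0 of the 10 with edgeR (0.246% of all tested genes), with DESeq2 (0.784%) and with limma library weights (0.932%). The log2 fold change, taken on normalized read counts plus 1 as knockout over wild-type, was negative for 8 genes and positive for Gna11 and Gna14. Its median over the 10 was −0.11, and over all tested genes it was −0.002. In no member did the ranges of the groups separate, as they did in 0.0343% of tested genes.

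**Figure D1:**
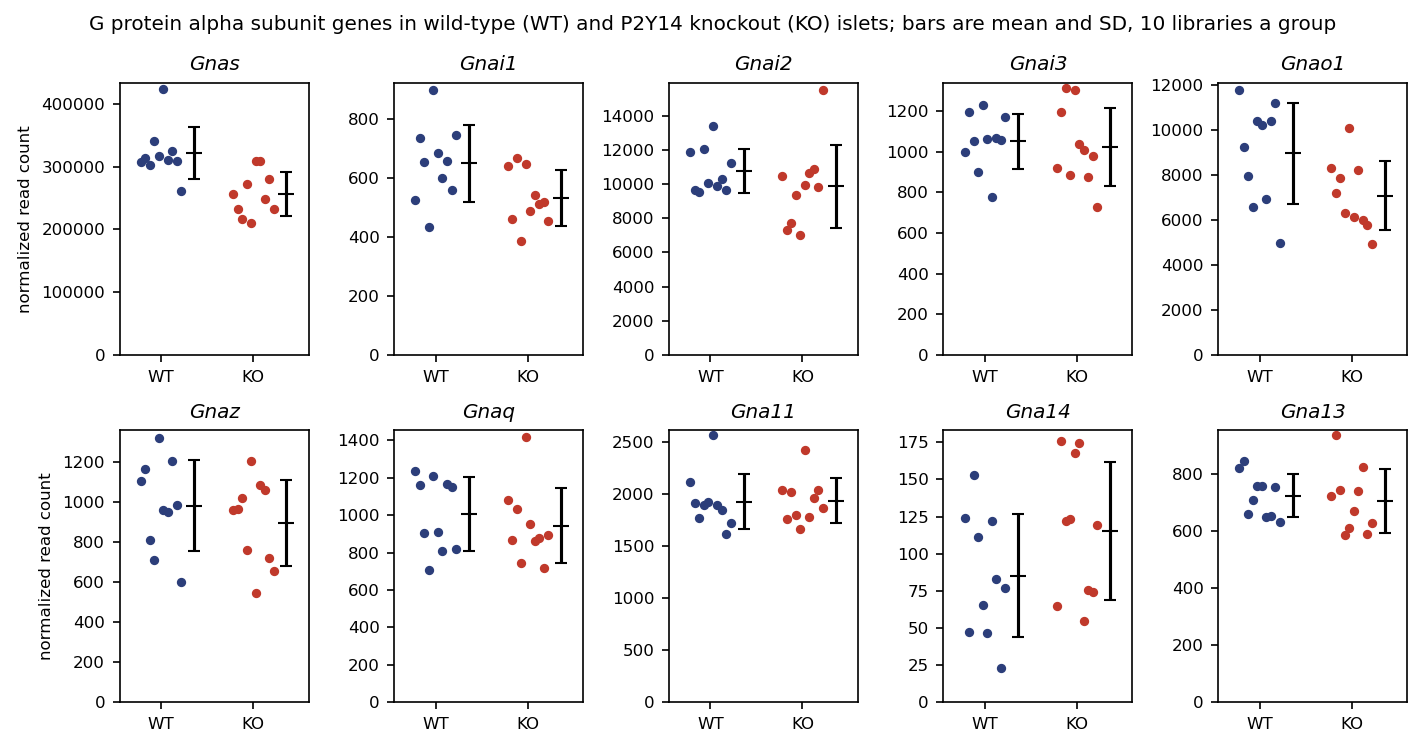
Normalized read count of each alpha subunit gene (vertical axis, from 0) in 10 wild-type (blue) and 10 knockout (red) libraries, with the mean and SD as black bars. The groups overlap in every panel; for Gnas, 6 of 10 knockout libraries lie below the lowest wild-type library.

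Gnas, the Gs alpha gene, had the highest values of them and took 0.322% of all reads. Wild-type libraries had normalized read counts from 261914 to 423560, with a median of 312726, and knockout libraries from 210880 to 309376, with a median of 252273. All 10 knockout libraries were below the wild-type median, and 7 wild-type libraries were above the highest knockout library. The knockout mean of 256732 ± 35426 was 0.799 of the wild-type mean of 321472 ± 41133 (SD, n = 10 each). On the log2 scale the difference was −0.33 with an SE of 0.12 (95% interval −0.57 to −0.08, adjusted p = 0.398 by limma). Its adjusted p was 0.0517 with DESeq2, and the value was −0.28 without the 4 libraries that stood apart (adjusted p = 0.436 by limma).

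A pair of annotated genes on the opposite strand share exon bases with Gnas, and the library kit did not mark strand, so their reads cannot be told apart from those of Gnas where they overlap. Gm20721 shares 1469 bases and had a knockout mean of 26666 ± 3607, which was 0.798 of the wild-type mean of 33399 ± 4224 (SD, n = 10 each). Nespas, the antisense RNA of the imprinted Gnas locus, shares 988 bases and had 272 ± 90.0 in knockout against 422 ± 93.2 in wild-type (SD, n = 10 each), a log2 fold change of −0.68 with an adjusted p of 0.148 by limma. Neither gene passed the test. Which of the transcripts of this locus the lower reads come from was not tested.

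Among the inhibitory class, Gnao1, which encodes Go alpha, the form best known from neurons and hormone-secreting cells, had the largest difference. Its wild-type values ran from 4954 to 11762 with a median of 9729, and its knockout values from 4914 to 10078 with a median of 6743. In 9 of 10 knockout libraries the value was below the wild-type median, but the lowest wild-type library (20) was near the lowest knockout library (10). The log2 difference was −0.32 with an SE of 0.15 (95% interval −0.64 to −0.002, adjusted p = 0.558 by limma), and −0.21 with summed macrophage markers as a covariate. An antisense gene, 4930488L21Rik, shares 284 exon bases with Gnao1.

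Gnai1, one of the Gi forms that inhibit adenylyl cyclase, ran from 433 to 897 in wild-type with a median of 656 and from 386 to 668 in knockout with a median of 514. Here 4 wild-type libraries were above the highest knockout library and 1 knockout library was below the lowest wild-type library. The log2 difference was −0.28 with an SE of 0.13 (95% interval −0.55 to −0.02, adjusted p = 0.531 by limma).

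Gnai2, the Gi form with the highest values in these islets, ran from 9501 to 13369 in wild-type with a median of 10168. In knockout it ran from 7026 to 15510 with a median of 9881. Knockout libraries lay on both sides of the wild-type range, with 4 below it and 1, replicate 10, above it. Its log2 fold change was −0.15 (95% interval −0.40 to 0.09, adjusted p = 0.729 by limma). Without knockout replicate 10 it was −0.23 (adjusted p = 0.581), and with macrophage markers as a covariate it was −0.24 (adjusted p = 0.451).

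Gnai3, the remaining Gi form, lies on chromosome 3 as P2ry14 does. In the annotation's gene order it is number 598 and P2ry14 number 174 of the 833 tested genes of that chromosome. Its values ran from 776 to 1231 in wild-type with a median of 1059 and from 727 to 1312 in knockout with a median of 994. The groups covered nearly the same range, and the log2 fold change of −0.05 had a 95% interval of −0.28 to 0.18. Gnat2, a transducin gene of cone photoreceptors next to it in gene order, had a log2 fold change of 0.07 (95% interval −0.24 to 0.39).

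Gnaz encodes Gz alpha, an inhibitor of adenylyl cyclase that pertussis toxin does not modify. It ran from 598 to 1318 in wild-type with a median of 970 and from 545 to 1205 in knockout with a median of 960, so the medians were close and the ranges overlapped. The log2 fold change was −0.13 (95% interval −0.46 to 0.20, adjusted p = 0.834 by limma), and −0.05 without the 4 libraries that stood apart. It was −0.21 without wild-type library 20, −0.06 without knockout replicate 6, −0.23 with library weights and −0.015 with macrophage markers as a covariate.

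The Gq class showed the smallest and the most uncertain differences side by side. Gna11, an activator of phospholipase C beta, ran from 1616 to 2563 in wild-type with a median of 1890 and from 1665 to 2416 in knockout with a median of 1909. Its log2 fold change of 0.01 had a 95% interval of −0.17 to 0.19, and the sign changed in several fits that left out 1 library. Gnaq, its close relative, ran from 706 to 1236 in wild-type with a median of 1031 and from 715 to 1419 in knockout with a median of 884. Its log2 fold change was −0.09 (95% interval −0.36 to 0.18), or −0.18 without the 4 libraries that stood apart, −0.22 with library weights, −0.16 without knockout replicate 5 and −0.05 without knockout replicate 9.

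Gna14, a Gq-type gene on the same chromosome as Gnaq, was the lowest of the 10, with 25 to 289 reads a library. Its wild-type values ran from 23.3 to 153 with a median of 80.0, and its knockout values from 55.0 to 176 with a median of 121. In 3 knockout libraries (2, 5 and 6) the value was above the highest wild-type library. The log2 difference of 0.50 with an SE of 0.31 (95% interval −0.15 to 1.15, adjusted p = 0.659 by limma) was 0.32 without wild-type library 19 and 0.13 without the 4 libraries that stood apart.

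Gna13, which activates RhoA through exchange factors such as Arhgef1, ran from 632 to 844 in wild-type with a median of 731 and from 586 to 935 in knockout with a median of 696. Knockout values spread to both sides, with 4 below and 1 above the wild-type range, and the log2 fold change was −0.05 (95% interval −0.25 to 0.15). It was −0.09 without knockout replicate 2 and −0.02 without knockout replicate 4. The antisense gene Gm11696 shares 151 of its exon bases.

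**Figure D2:**
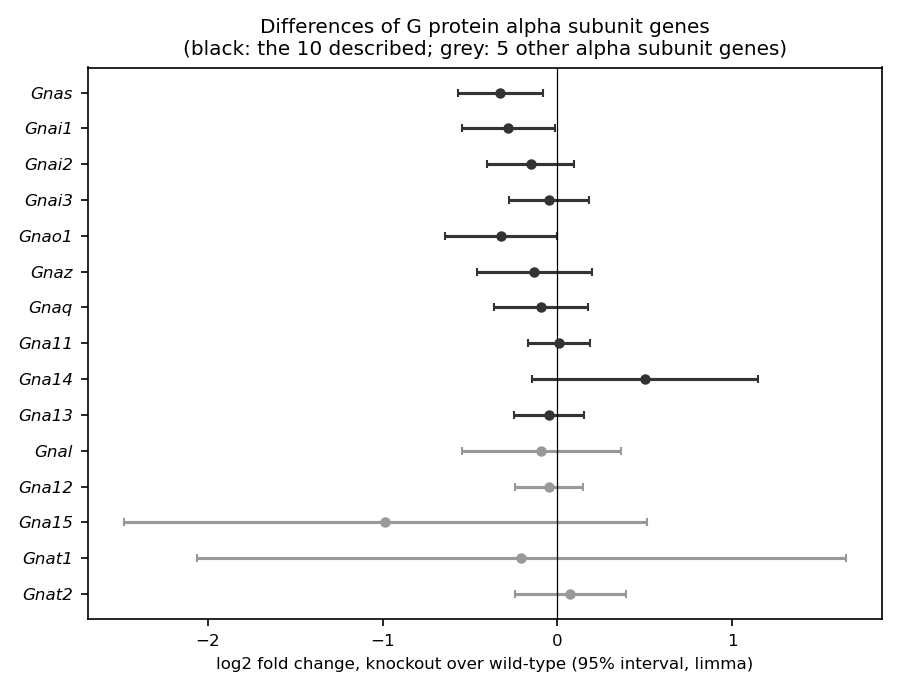
Log2 fold change of knockout over wild-type (horizontal axis) with its 95% interval by limma for the 10 alpha subunit genes (black) and 5 others (grey). The intervals of Gnas, Gnai1 and Gnao1 lie below 0 before adjustment over all genes, and the interval of Gna14 is the widest of the 10.

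The 5 other alpha subunit genes in the table did not pass the test either, and 4 of them had a negative value. Gna12, the partner of Gna13 in its class, had 786 ± 57.8 against 821 ± 138 in wild-type (SD, n = 10 each). Gnal, the olfactory form of Gs alpha, had 125 ± 54.8 and 126 ± 31.1 (SD, n = 10 each). Both share exon bases with a gene on the opposite strand. Gna15, a Gq-type gene of blood cells, and Gnat1, the rod transducin gene, were low, with means between 16.6 and 48.6 and some libraries at 0.

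Levels between genes were compared per length, as normalized reads per kb of merged exon in GENCODE M21. Over the 20 libraries Gnas had 25845 ± 4469 (SD, n = 20), Gnai2 had 2728 ± 518 (SD, n = 20) and Gnao1 had 725 ± 191 (SD, n = 20). Gnas was 9.48-fold above Gnai2, and Gnai2 was 3.76-fold above Gnao1, in both cases with ranges that did not overlap. These were followed by Gna11 at 471 ± 56.8, Gnai3 at 318 ± 50.1, Gnaz at 260 ± 60.5, Gnai1 at 188 ± 40.1, Gnaq at 158 ± 31.8 and Gna13 at 111 ± 14.6 (SD, n = 20 each). From Gnao1 down to Gna13 each gene's range overlapped that of the next gene. Gna14 came last at 29.2 ± 13.3 (SD, n = 20), below Gna13 in 20 of 20 libraries. The least certain step was Gnai1 over Gnaq, found in 17 of 20 libraries, and in 13 of 20 when the longest transcript was used as length. Per kb of the longest transcript, the order of the 10 genes was the same, and the means of Gnas, Gnai2 and Gnao1 were 73246, 4653 and 1451. How often the counter counted a read for each gene is not given, so the order and folds hold for the deposited values only.

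**Figure D3:**
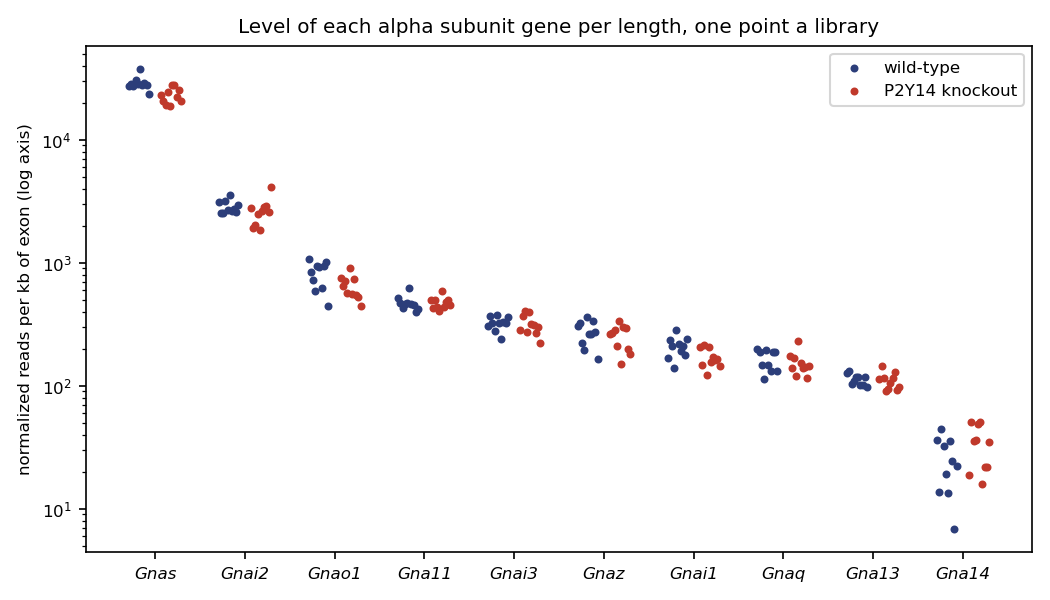
Normalized reads per kb of merged exon (log axis) for each alpha subunit gene, ordered by mean, with 1 point for each of 10 wild-type (blue) and 10 knockout (red) libraries. Gnas and Gnai2 stand above the rest and Gna14 below it, in both groups.

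As a share of the summed per-length level of the 10 genes, Gs took 82.7 ± 2.33% in knockout and 84.5 ± 1.18% in wild-type, and Gi/o/z took 14.5 ± 2.15% and 13.2 ± 1.04% (SD, n = 10 each). The Gq class took 2.40 ± 0.351% and 1.94 ± 0.156%, and Gna13 took 0.403 ± 0.0890% and 0.334 ± 0.0399% (SD, n = 10 each). Within Gi/o/z, Gnai2 took 64.8 ± 8.56% in knockout and 63.9 ± 5.25% in wild-type, and Gnao1 took 16.4 ± 4.32% and 18.1 ± 3.83% (SD, n = 10 each). All these shares overlapped between the groups. The class shares add up to a fixed whole, so a lower Gs share raises the others by construction. Per length, each Gi/o/z gene and Gna13 had a lower mean in knockout, such as Gnai2 at 2608 ± 645 against 2847 ± 345 (SD, n = 10 each). In the Gq class the mean of Gnaq was lower and those of Gna11 and Gna14 were higher. With the longest transcript as length, Gs took 89.7 ± 1.56% and 90.8 ± 0.752% (SD, n = 10 each), since the merged exons of Gnas add up to 11186 bases and its longest transcript to 3947. The Gs share is that of the whole Gnas value, which does not tell the transcripts of that locus apart. Reads of the overlapping genes on the opposite strand may be part of it. How often a read was counted for each gene is not given either. These shares describe the deposited values and were not tested.

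Islet preparations carry cells other than endocrine cells, so each member was also fitted against the summed value of marker genes, with genotype kept in the model. In such bulk samples, fewer cells of a type and less RNA per cell cannot be told apart. Acinar markers spanned 3399462 to 49079640 over the libraries, and no member changed with them at an adjusted p under 0.05 by limma, whereas 9.64% of all tested genes did. The lowest adjusted p among members was that of Gnaq, whose slope per doubling of the acinar sum was −0.14 with an SE of 0.05 (adjusted p = 0.0941 by limma). For Gnas the slope was 0.03 (95% interval −0.05 to 0.12).

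The same fit was then run for 9 more marker lists, chosen after the acinar values had been seen, which gave 100 slopes for the 10 members. With macrophage and dendritic cell markers 4 of the 10 members passed, 1 rising and 3 falling. Of all tested genes 20.1% passed, 9.94% rising and 10.1% falling. Gnai2 rose by 0.38 per doubling of that sum (SE 0.09, adjusted p = 0.00794 by limma). Gnaz fell by 0.52 (SE 0.12, adjusted p = 0.00629 by limma), Gnao1 fell by 0.50 (SE 0.12, adjusted p = 0.00773 by limma) and Gnai3 fell by 0.29 (SE 0.10, adjusted p = 0.0447 by limma). Gnai2, Gnaz and Gnao1 passed in all 20 leave-one-out fits, where the highest adjusted p was 0.0497 for Gnai2. Gnai3 passed in 7 of 20; it did not pass without knockout replicate 2, 3, 4, 5, 8, 9 or 10 or without wild-type library 12, 13, 14, 15, 16 or 18, at adjusted p from 0.0507 to 0.164.

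**Figure D4:**
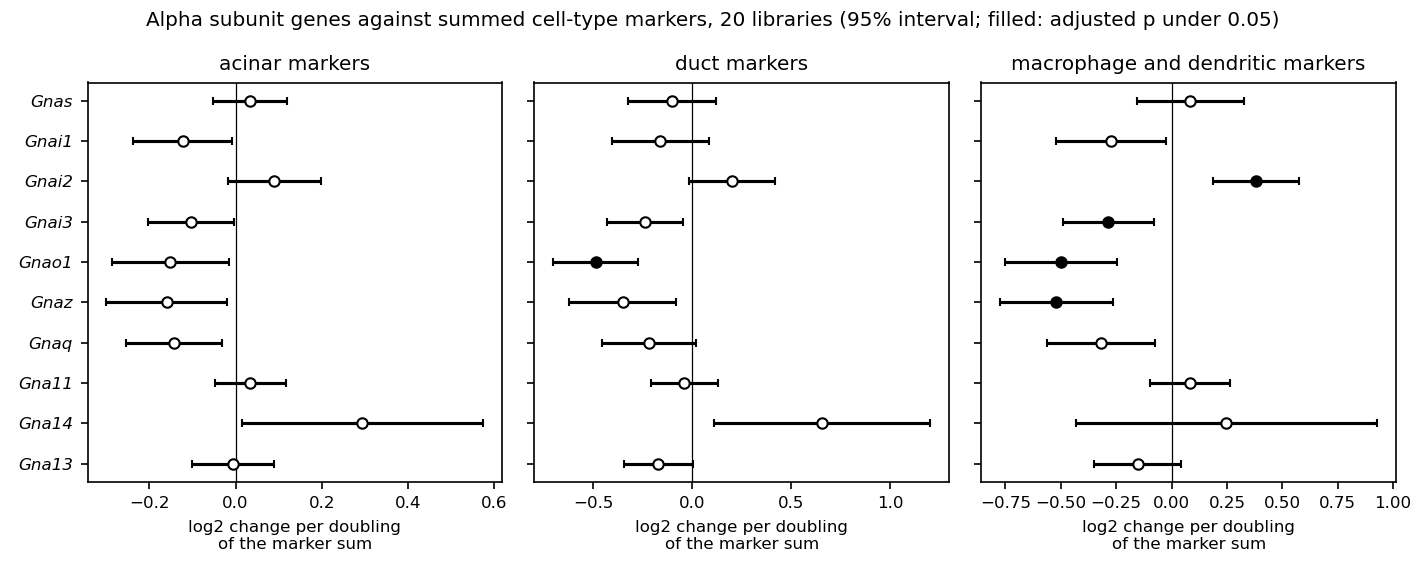
Log2 change of each alpha subunit gene per doubling of the summed acinar, duct or macrophage and dendritic cell markers (horizontal axes), with 95% intervals over 20 libraries and genotype in the model. Filled points passed an adjusted p under 0.05 by limma: Gnao1 against duct markers, and Gnai2, Gnai3, Gnao1 and Gnaz against macrophage and dendritic cell markers.

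Within a single genotype the directions were the same, with fewer libraries. The slope of Gnai2 was 0.50 within knockout (adjusted p = 0.0468 by limma) and 0.21 within wild-type (adjusted p = 0.447). For Gnao1 it was −0.43 and −0.60, and for Gnaz −0.47 and −0.59, none of these past the threshold. The libraries at the ends of the scale were knockout replicate 2, with a marker sum of 1681, and knockout replicate 10, with 5939. Replicate 10 had the highest Gnai2 value and the lowest Gnao1 value of all libraries.

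**Figure D5:**
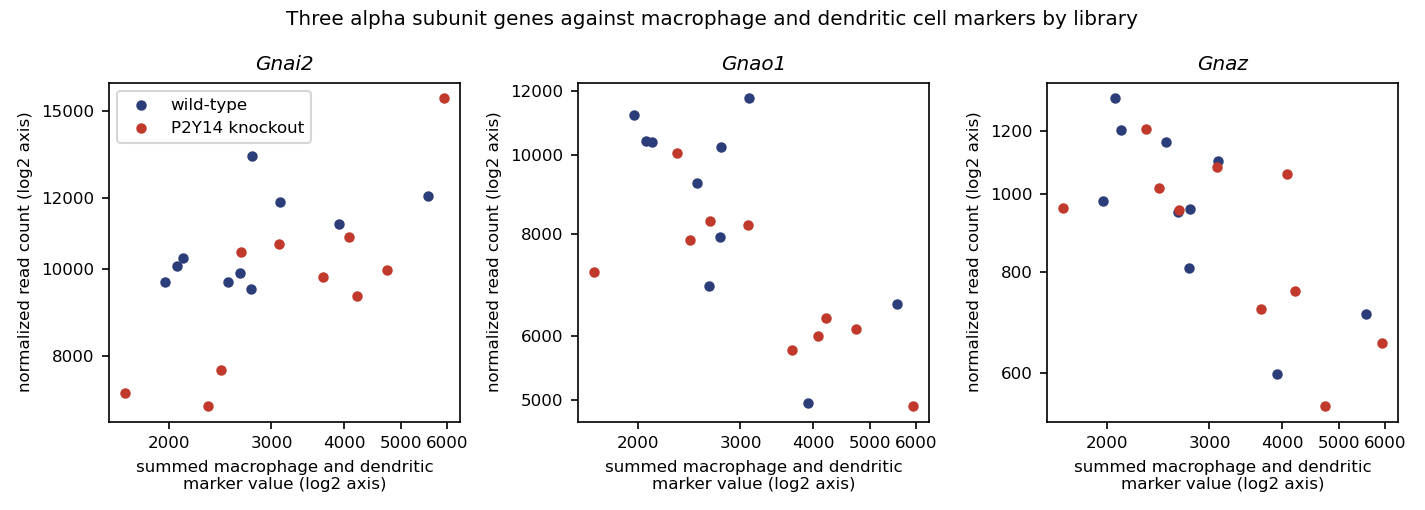
Normalized read count of Gnai2, Gnao1 and Gnaz (log2 axes) against the summed value of 15 macrophage and dendritic cell markers in 10 wild-type (blue) and 10 knockout (red) libraries. By fitted slope, Gnai2 rose and Gnao1 and Gnaz fell with the marker sum in both genotypes. Within a single genotype only the slope of Gnai2 in knockout passed an adjusted p under 0.05 by limma.

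Gnao1 also fell with duct markers, by 0.49 per doubling (SE 0.10, adjusted p = 0.00434 by limma), and with mesenchymal markers, by 0.24 (SE 0.05, adjusted p = 0.00502 by limma). Both passed in 20 of 20 leave-one-out fits. With 1 of the 10 members in each case, the share of all tested genes that passed was 11.8% for duct markers (4.39% falling) and 9.66% for mesenchymal markers (2.78% falling). No member passed against beta cell, alpha cell, delta and PP cell, endothelial, Schwann cell or lymphocyte markers, where 6.03%, 0.0801%, 0.0114%, 5.73%, 0.28% and 5.41% of tested genes did. The duct, mesenchymal and macrophage sums partly moved together. Knockout replicate 10 had 63633, 42274 and 5939, and wild-type library 19 had 14887, 3017 and 1970. Wild-type library 17, in contrast, had 43422 for duct and 2648 for macrophage markers. Which of these lists Gnao1 follows was not tested.

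The marker sums themselves overlapped between the genotypes, and no listed marker passed the test between them. Macrophage and dendritic cell markers had a positive fold change in 11 of 15 genes, and their sum ran from 1681 to 5939 in knockout and from 1970 to 5573 in wild-type. Their genes Aif1, Itgam and Mrc1 were at 0 in some libraries. Alpha cell markers had a negative fold change in 6 of 8 genes, and their sum ran from 546522 to 1840258 in knockout and from 1204848 to 2293472 in wild-type. Delta and PP cell markers had a negative fold change in 6 of 6 genes. Positive values were found for 18 of 20 acinar, 7 of 7 duct and 8 of 10 mesenchymal markers. The beta cell, endothelial, Schwann cell and lymphocyte lists had 4 of 10, 4 of 9, 4 of 6 and 2 of 4 tested genes positive. The part of alpha, delta, PP, duct or mesenchymal cell RNA in the lower values of Gnas, Gnai1 and Gnao1 was not tested.

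Some members varied together across libraries, and some in opposite directions. After the group mean was subtracted, Gnao1 had a Spearman correlation of 0.77 with Gnaq and 0.75 with Gnaz over the 20 libraries. Gnai1 had one of 0.63 with Gnai3. Gnai2 had negative correlations with every other Gi/o/z member, from −0.65 with Gnai3 to −0.33 with Gnai1. All are given as a description since all values share libraries and size factors. Among tested genes with a symbol, the one most like Gnas was Gm20721 (0.99), which overlaps it. Gnao1 was most like the kinesin gene Kif21a (0.93) and the formin gene Fmn2 (0.89), and Gnaq was most like the argonaute gene Ago1 (0.90), which also had 0.89 with Gnao1. Gnaz was most like Pafah1b1 (0.89), a regulator of the motor dynein, and Gnai2 most like Capns1 (0.87), the small subunit of calpain. For Gna11 the first was Ddc (0.83), the aromatic amino acid decarboxylase, and for Gna14 it was Cldn8 (0.85), a tight junction claudin. Gnai1, Gnai3 and Gna13 were most like Wdr47 (0.87), Anapc1 (0.86) and Cxxc5 (0.80). These were the highest values among the tested genes that have a symbol and carry no test.

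The genes that act with the alpha subunits were taken from lists of known partners. Of 66 tested genes in 8 lists of other alpha, beta and gamma subunits, chaperones and modulators, RGS proteins and effectors, 0 passed by limma (0.28% of all tested genes did) and 7 had an unadjusted p under 0.05, as did 8.94% of all tested genes. Their median log2 fold change was −0.06, with 40 negative and 26 positive values. Among beta subunits, Gnb2 had 44063 ± 7838 in knockout against 41842 ± 7490 in wild-type, and Gnb1 had 10333 ± 721 and 11082 ± 1321 (SD, n = 10 each). The gamma subunit gene Gng12 differed by −0.37 on the log2 scale with an SE of 0.21 (adjusted p = 0.628 by limma) and Gng4 by −0.28 with an SE of 0.13 (adjusted p = 0.546 by limma).

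RGS proteins speed up GTP hydrolysis by alpha subunits and so end their signal. Of 17 tested, none passed. The lowest adjusted p was that of Rgs10, at 1.53 on the log2 scale with an SE of 0.39 (adjusted p = 0.120 by limma). Rgs3 was at −0.40 with an SE of 0.13 (adjusted p = 0.292 by limma). Of the genes with the highest means, Rgs11 was at 0.65 with an SE of 0.28 (adjusted p = 0.518 by limma). Rgs2, which varied widely, was at 0.83 with an SE of 0.59 (adjusted p = 0.696 by limma). Among 11 chaperones and modulators, Nucb1 had 0.01 and Gpsm1, which holds Gi alpha in its GDP form, −0.13. Of 9 adenylyl cyclases, the cAMP-making effectors of Gs and Gi, Adcy9 had −0.21 and Adcy6 −0.08. Among 7 Gq effectors, the exchange factor gene Kalrn had −0.52 with an SE of 0.14 (adjusted p = 0.169 by limma) and Trio −0.33. All 4 G12/13 effectors had negative values, with Akap13 at −0.26 and Arhgef1 at −0.03. The largest was that of Arhgef11, −0.35 with an SE of 0.11 (adjusted p = 0.289 by limma).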

How the data were processed

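Islet RNA of 10 P2Y14-knockout and 10 wild-type samples was sequenced from TruSeq RNA v2 libraries, per the labels' protocols, a kit that keeps no strand. The deposited table holds a signal unit, gene read counts divided by a DESeq size factor for each library, per the name of the table. Build mm9 and the tools DESeq 1.16.0, Cufflinks 1.3.0, Bowtie 0.9.9, TopHat 1.3.3 and FastQC come from the submitters' processing notes. The sources used here do not give the read counter, its settings or the annotation. Every non-zero value was a whole multiple of 1 step per column within 0.05 of a step (100%). Whole counts of that step, called reads here, were used for depth and for edgeR and DESeq2. Those of Gnal were even in every library, such as 126 in knockout replicate 1 and 78 in wild-type library 20. A step may therefore not be 1 sequenced read for every gene, which edgeR and DESeq2 take it to be, and this was not tested. Knockout columns are numbered 1 to 10 as in the labels. Wild-type columns are numbered 11 to 20, which match no label number, so they count as wild-type libraries only.

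Symbols were matched for 23950 of 26211 identifiers. GENCODE M21 is on GRCm38, so no coordinates are printed. The test was limma 3.58.1 (R 4.3.3) with a mean trend on log2(value + 1), genes with a mean of at least 10, genotype as the only term, and Benjamini-Hochberg adjustment over all 17482 genes. Fold changes of low genes depend on the pseudocount and can differ from the ratio of means where libraries are at 0. Gna15 had a log2 fold change of −0.98 and a ratio of means of 0.940. Named genes are the 10 members, other alpha subunits, 2 genes of highest mean per list and the genes most alike. Rgs10, Rgs3 and Arhgef11 were named for their low unadjusted p. The members and lists were chosen with earlier results of these data known. Alternatives were pseudocounts of 0.5 and 10, no filter or a mean of at least 100, TMM, quantile normalization, edgeR 4.0.16, DESeq2 1.42.0, covariates, library weights, robust eBayes and leaving out each library. Slopes on 9 marker lists and the fit without 4 knockout libraries were added after seeing the data. The fitting script was first tested on simulated counts.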

Additional observations from a re-analysis of the deposited data

Results flagged for a closer look

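In 6 of 32 groups of 10 libraries examined, 1 library lay apart from the rest by more than 0.466 of the group's range. Independent, normally distributed values pass that limit in about 1 group in 20. Counts can be skewed and the groups share libraries and size factors, so the rate to be met here by chance is not known. Gnas was at 423560 in wild-type library 16, and Gna11 was at 2563 in the same library. Gna11 was at 2416 in knockout replicate 6. Gnai2 was at 15510 in knockout replicate 10, the library with the highest macrophage and dendritic cell marker sum. Gnaq was at 1419 in knockout replicate 5, the shallowest library. Gna15, which is low throughout, was at 73.3 in knockout replicate 7. In each case the library that stood apart was the highest of its group.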

How the results depend on the processing

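No alternative put any of the 10 members past the threshold in the comparison of genotypes, 34 alternatives in all. Adjusted p ranged from 0.0517 to 0.727 for Gnas, whose value ranged from −0.45 with quantile normalization to −0.28. The direction held in all 34 for 8 members. Gnai3 was at 0.0155 with macrophage markers as a covariate, and from −0.10 to 0.00403 when 1 library was left out. Gna11 was at −0.00197 with acinar markers as a covariate, −0.00983 with macrophage markers and −0.00722 with library weights, and from −0.0282 to 0.0556 when 1 library was left out. When 1 library was left out, Gnaz ran from −0.21 to −0.06, Gnaq from −0.16 to −0.05 and Gna13 from −0.09 to −0.02. The change of Gna13 with acinar markers ran from −0.0364 to 0.0259 when 1 library was left out. Gna14 passed that acinar fit without knockout replicate 5 (0.49, adjusted p = 0.0427 by limma) and Gnaq without knockout replicate 9 (−0.16, adjusted p = 0.0468 by limma). The fit without knockout replicates 2, 5, 6 and 10 was chosen after seeing the data. Over all genes the count past the threshold was 49, with 137 by DESeq2, 163 with library weights and 27 without knockout replicate 4. It was 29 under the filter at 100, 30 without wild-type library 19, 32 without knockout replicate 8, 107 with acinar markers and 77 with macrophage markers as a covariate, and 90 without the 4 libraries named. No paired analysis was possible because the wild-type columns carry no replicate number of the labels. Gna14 had the fewest reads of the members, 25 to 289 a library.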
